A study of Mus musculus with 48 samples.

Results

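The results concern how the effect of a c-Rel transgene differed between plasma cells (PC) and germinal center B cells (GCB) of the same spleens. They rest on 32 of the 48 samples of the study, namely every PC and GCB sample of its 16 mice, chosen by the cell type in the labels. The other 16 samples, naive B cells, entered only an alternative fit. Control mice (numbers 1 to 4 and 9 to 12) lacked the transgene, and c-RelTG mice (numbers 5 to 8 and 13 to 16) carried it, with 8 animals in each group. Controls are not wild type: a further allele, carried by all 16 animals of both genotypes, is not reported here. Every animal had received sheep erythrocytes (SRBC) by the intraperitoneal route, which evokes germinal centers. The labels used here give neither the promoter of the transgene nor the age of the mice. After magnetic pre-separation, 1000 cells per sample were sorted, GCB as B220+ IgD- CD38 low CD95 high GL7+ cells and PC as B220 low CD138+ cells. RNA was counted with bulk SCRB-seq, in which a unique molecular identifier (UMI) marks each captured messenger RNA near its 3′ end.

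c-Rel, encoded by Rel, is a subunit of NF-kB, a family of dimeric transcription factors held inactive in the cytoplasm by IkB proteins until antigen receptors, CD40 or innate receptors signal. In B cells c-Rel is best known for its part in activation and proliferation and in the maintenance of germinal centers, where B cells divide, mutate their antibody genes and switch isotype. Plasma cells are the non-dividing or slowly dividing secretory end stage of that lineage, in which Blimp1 represses much of the B cell program.

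For each gene, 2 genotype effects were set against each other. A genotype effect is the log2 ratio of c-RelTG over control, and the difference of effects is the effect in PC minus the effect in GCB, which equals the difference between genotypes in each mouse's own PC minus GCB log level. A positive difference means that the effect in PC lay above that in GCB, and a negative one that it lay below. Levels are in CPM, UMIs per 1000000 of an effective sample total. That total is the sample's UMIs in the tested genes after TMM scaling between samples, not all of its UMIs. Unscaled sample totals ran from 401207 to 695137 UMIs in GCB and from 481229 to 794273 in PC. A difference was called at a Benjamini-Hochberg adjusted p below 0.05 in edgeR's quasi-likelihood test with the mouse as a block. Since every sample is bulk RNA, fewer cells of a type and less RNA per cell cannot be told apart.

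The sorted populations carried the markers of their labels. The summed level of 7 plasma cell markers was 62728 to 146077 CPM in PC and 1917 to 2947 CPM in GCB, and that of 5 GCB markers was 967 to 1155 CPM in GCB and 34.6 to 92.8 CPM in PC. RNA of T cells was present in PC samples, at a lower level in 7 of 8 c-RelTG mice than in any control. Summed over 10 T cell markers, control PC held 109 to 169 CPM and c-RelTG PC 35.7 to 123 CPM, with c-RelTG mouse 5 at 123 CPM, mouse 14 at 79.8 CPM and the other 6 between 35.7 and 45.0 CPM. All GCB samples were at or below 7.33 CPM. In control PC all 10 T cell markers had UMIs, led by Thy1 (42.0 CPM) and Trbc2 (34.7 CPM), and in c-RelTG PC only Trac had none, with Thy1 at 8.80 CPM and Trbc2 at 14.6 CPM. The difference between genotypes in PC minus GCB was −1.26 on the log2(CPM + 1) scale (exact permutation test over mice, two-sided, p = 0.0438, adjusted over 12 sample checks 0.19). The plasma cell markers moved with genotype as well, by −0.57 (exact permutation p = 0.00186, adjusted 0.0224), and Jchain is by far the most abundant of them. NK cell markers stayed at or below 25.9 CPM in every sample, and S100a8 with S100a9, neutrophil genes, summed to 113 CPM in PC of c-RelTG mouse 15 and to 0 in every other PC sample. Estimates with the T cell marker sum of PC as a covariate are given below for each called gene whose value moved by over 1.5 times.

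Rel itself was higher in GCB of c-RelTG mice, and nearly all UMIs of Rel in PC came from c-RelTG mice. In GCB, Rel was at 5.74 to 16.5 CPM with a median of 8.51 in controls and at 11.8 to 29.7 CPM with a median of 21.8 in c-RelTG mice, so that the groups overlapped. The genotype effect in GCB was 1.08 on the log2 scale (edgeR adjusted p = 0.00105). In PC, 7 of 8 controls had no Rel UMI and control mouse 2 had 1, at 3.70 CPM. Of the c-RelTG PC samples, 7 of 8 had Rel UMIs, 18 in all, with a median of 4.88 CPM and a highest value of 15.7 CPM in mouse 5, and mouse 7 had none. The difference of effects was 2.32 (SE 0.97) and was not called (edgeR adjusted p = 0.241), and the per-mouse difference on the log2(CPM + 1) scale was 1.10 (exact permutation p = 0.113). With each mouse left out in turn, edgeR called Rel in 0 of 16 fits (adjusted p from 0.0797 to 0.388). The per-mouse difference was 1.48 without control mouse 2 (exact permutation p = 0.0246, unadjusted), the highest control. It was 1.51 without c-RelTG mouse 7 (exact permutation p = 0.0194, unadjusted), the lowest c-RelTG mouse. Each of these 2 removals takes out the mouse of its genotype that lay most against the difference. With so few UMIs in PC, whether the transgene raised Rel by the same factor in both populations was not detectable at this depth. The 3′ tags counted here were assigned to Rel as a gene, and whether the transgene's own transcript carries that 3′ end is not stated in the labels.

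**Figure D1:**
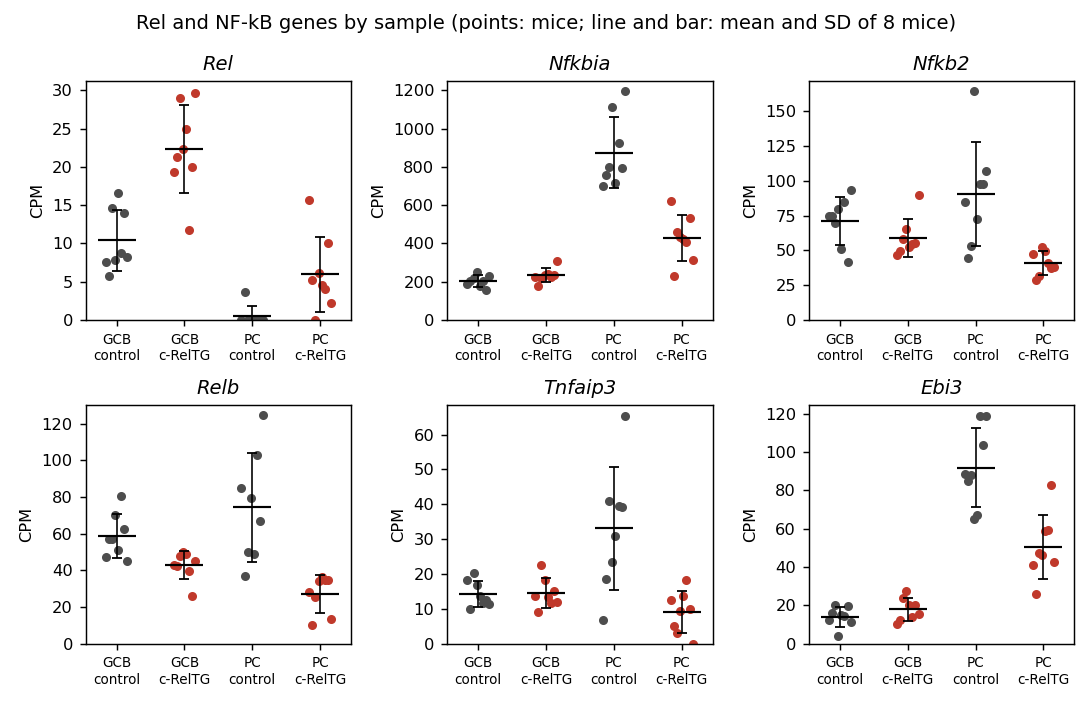
Levels in CPM (vertical axes, linear, from 0) of Rel and of 5 further NF-kB genes in GCB and PC of control (grey) and c-RelTG mice (red), 1 point per mouse with the mean and SD of 8 mice. Nfkbia in PC ran from 699 to 1196 CPM in controls and from 230 to 622 CPM in c-RelTG mice, while its GCB values overlapped.

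Of 7338 genes tested, 147 had a called difference of effects (2.0%), 47 positive (0.641%) and 100 negative (1.36%). Without the filter on low counts the split was 76 positive and 77 negative. Called or not, 3573 of the 7338 differences lay above 0 and 3765 below it. Within a single population, the genotype effect was called for 491 of 6393 genes in GCB (7.68%) and for 288 of 4538 genes in PC (6.35%), and the GCB count was 747 without mouse 8. Of the 491 calls in GCB 229 were higher in c-RelTG mice, and of the 288 in PC 105 were. Among the 100 genes with a negative difference, 52 were called lower in c-RelTG PC, and 16 were not tested in PC alone. In c-RelTG GCB 26 were called higher, and 12 were not tested in GCB alone. A call in either population alone was lacking for 23. Of the 47 positive ones, 20 were called higher in c-RelTG PC, where 4 were not tested, and 20 lower in c-RelTG GCB. Such counts of calls do not show which of the 2 effects was the larger. Both effects were called for 9 genes. In 6 of them the effects had opposite signs, with Pld4, Rgs14, Btg2, Napsa and Top1 higher in PC and lower in GCB and Rpl8 the reverse, and in 3, Relb, Ptpn6 and Laptm5, both effects were negative and that in PC was the larger. These last 3 and Napsa and Top1 were named after their values were seen. The difference was beyond 2-fold for 51 of the 147 genes, and 141 of them reached 10 CPM in both populations. Of the negative genes 11 were pseudogenes, whose UMIs may not be told from those of the parent gene, and 6 were immunoglobulin genes or segments.

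**Figure D2:**
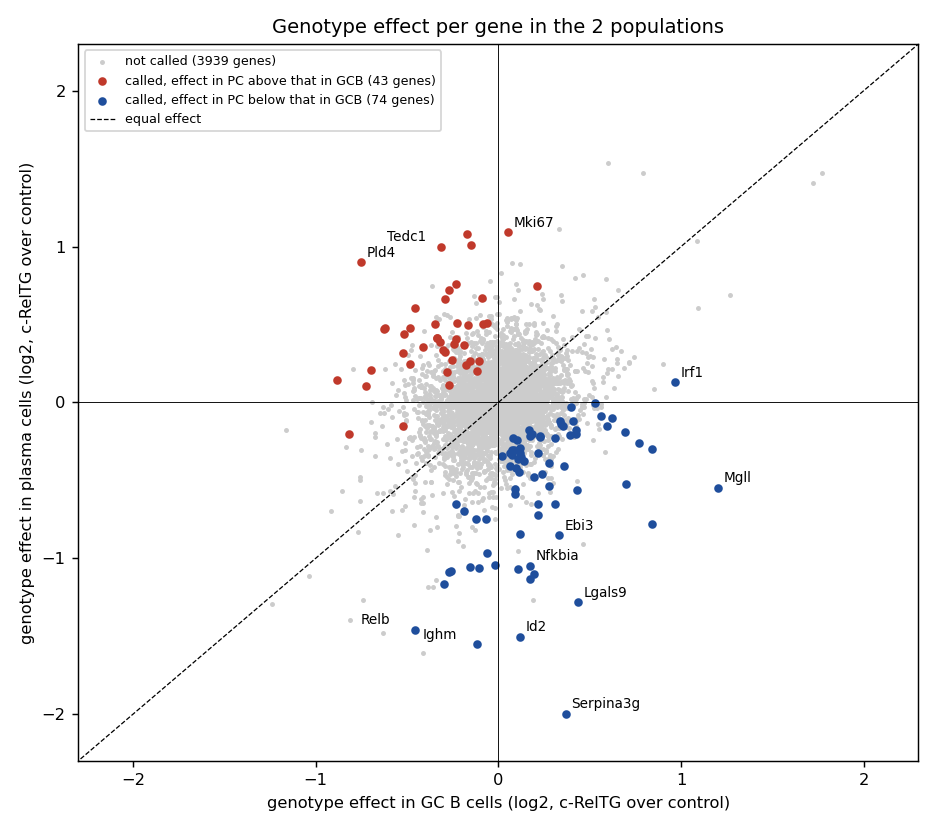
Genotype effect in GCB (horizontal axis) and in PC (vertical axis), both log2 of c-RelTG over control, for the genes tested in both populations, with genes whose difference of effects was called in red (43 positive) and blue (74 negative). Serpina3g, at 0.37 in GCB and −2.0 in PC, lies farthest below the line of equal effect, and Pld4, at −0.75 in GCB and 0.90 in PC, is the labelled gene farthest above it.

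T cell RNA entered 2 further fits, chosen after seeing the data. With each mouse's PC minus GCB difference in the T cell marker sum as a covariate, 91 genes were called, 80 of them among the 147. With the T cell marker sum of the PC sample alone, no gene passed edgeR's test, and 540 genes had an unadjusted p below 0.05. In that fit the covariate overlaps so far with genotype, 7 of 8 c-RelTG mice lying below all controls, that the variance of the genotype term rose 3.46 times. Genotype and T cell RNA cannot be told apart there. Of the 60 called genes with values in the text, 23 lost the call with the first covariate, namely Pld4, Ncapg, Rgs14, Wdhd1, P2ry10, Pdk1, Shisa8, Prg2, Nfkb2, Ebi3, Gadd45b, Myc, Mki67, Neil1, Blnk, Fcrla, Jchain, Ighm, Bcl2l11, Icam1, Relb, Laptm5 and Mzb1. With DESeq2, 17 of the 54 that received an adjusted p lost it, namely Ncapg, Wdhd1, Nfkb2, Gadd45b, Irf1, H2-K1, Npm1, Myc, Neil1, Cd79b, Blnk, Fcrla, Rpl13, Bcl2l11, Icam1, Relb and Laptm5. Without the mouse as a replicate block, 17 of the 60 lost it, namely Chst1, Shisa8, Serpina3f, Nfkb2, Irf1, Ly6a, H2-K1, Npm1, Myc, Cd79b, Blnk, Fcrla, Bcl2l11, Icam1, Il2rg, Laptm5 and Mzb1. With limma on per-mouse log2 differences, 37 of the 60 lost the call at a prior count of 2 and 43 at 0.5. Tedc1, Pitpnc1, Tnfaip3, H2-Eb1, B2m, Slc3a2, Rplp1 and Rpl8 were among those lost at both. After thinning to the lowest total, 20 of the 58 tested lost the call. In mice 1 to 8 alone 43 of the 60 lost it, and in mice 9 to 16 alone 28, with fewer mice in these fits. The T cell markers of PC from c-RelTG mouse 5 were within the control range, and its values for the leading genes are given too.

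Among genes at 10 CPM or more in both populations, Serpina3g, a serine protease inhibitor of leukocytes, had the most negative difference. In PC it was at 73.9 to 234 CPM with a median of 148 in controls and at 15.6 to 53.9 CPM with a median of 37.9 in c-RelTG mice, and these groups did not overlap. In GCB it was at 6.08 to 33.9 CPM with a median of 9.93 in controls and at 6.56 to 31.9 CPM with a median of 24.01 in c-RelTG mice, and these groups overlapped. The difference of effects was −2.41 (SE 0.28, edgeR adjusted p = 7.54e-09; exact permutation p = 0.000155, the smallest that 8 against 8 mice allow), with all 8 c-RelTG mice below every control in PC minus GCB. In c-RelTG mouse 5, PC held 47.1 CPM. With the PC T cell marker sum as a covariate the value was −2.10. Serpina3f, a neighbouring member of the same cluster, was at 23.8 to 109.8 CPM with a median of 48.4 in control PC and at 6.69 to 47.1 CPM with a median of 22.96 in c-RelTG PC, with a difference of −2.61 (SE 0.62, edgeR adjusted p = 0.00647). The Serpina3 genes are near-identical copies in places, so UMIs could have been split among them. Of 11 serpins and protease inhibitors listed, 6 were tested and these 2 called, and the median difference over the 6 was −0.25 against −0.010 over all genes tested. That median was 0.0035 after thinning, with 4 members tested, 0.00039 with the first and −0.079 with the second T cell covariate.

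Inhibitors and noncanonical subunits of NF-kB stood lower in PC of c-RelTG mice. Of 12 NF-kB subunits and inhibitors listed, 11 were tested, of which 0 had a positive and 4 a negative difference (Nfkbia, Tnfaip3, Nfkb2 and Relb), beside 1.36% negative calls among all genes, and their median was −0.37. With DESeq2 1 of the 11 was called. In PC alone 4 of 6 tested members fell and none rose, and in GCB 2 of 11 fell and 1, Rel, rose. Among all genes 6.35% were called in PC and 7.68% in GCB, in either direction. Nfkbia encodes IkBα, the inhibitor that NF-kB itself induces as negative feedback. In PC it was at 699 to 1196 CPM with a median of 796 in controls and 229.6 to 622 CPM with a median of 428 in c-RelTG mice, without overlap, and in GCB at 155 to 250.2 CPM with a median of 204 and 178 to 310.0 CPM with a median of 230.5. The difference of effects was −1.25 (SE 0.14), with all 8 c-RelTG mice below every control (edgeR adjusted p = 9.32e-07; exact permutation p = 0.000155). Mouse 5, at 622 CPM in PC, was the highest of the c-RelTG mice and below the lowest control. With the T cell marker covariate of PC the value was −0.75.

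Tnfaip3 encodes A20, a ubiquitin-editing inhibitor of NF-kB signalling. Control PC held 6.79 to 65.3 CPM with a median of 35.1, and c-RelTG PC 0 to 18.4 CPM with a median of 9.64, so that the ranges overlapped, while GCB stayed at 10.1 to 20.4 CPM with a median of 13.2 in controls and 9.13 to 22.7 CPM with a median of 13.5 in c-RelTG mice. Its difference was −1.83 (SE 0.42, edgeR adjusted p = 0.00597; exact permutation p = 0.00684) and shrank to −0.58 with the PC T cell covariate, a change of over 1.5 times. Nfkb2, the p100 subunit of the noncanonical pathway, fell in c-RelTG PC, which held 28.7 to 52.6 CPM with a median of 39.4, against 44.4 to 165 CPM with a median of 91.3 in controls. In GCB its effect of −0.30 was not called, and the difference was −0.88 (SE 0.22, edgeR adjusted p = 0.011). That call was lost without mouse 4 or mouse 16 (adjusted p up to 0.0644), and the value was −0.51 with the PC T cell covariate. Relb, the partner of Nfkb2, was the case in which both populations fell, with effects of −0.46 in GCB and −1.46 in PC and a difference of −0.99 (SE 0.26, edgeR adjusted p = 0.02). Its call was lost when mouse 1, 6, 12 or 16 was left out (adjusted p up to 0.0816), and the value was −0.24 with the PC T cell covariate. Rela and Nfkb1, the subunits of the classical heterodimer, had differences of −0.086 and 0.077 (edgeR adjusted p = 0.89 and 0.945).

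Target genes of NF-kB in B cells did not all move one way. Of 20 listed, 14 were tested, of which 1 had a positive call (Gadd45b) and 3 a negative one (Ebi3, Irf1 and Icam1), and the median difference was −0.52. Ebi3, a subunit of the cytokines IL-27 and IL-35, was at 64.8 to 119 CPM with a median of 88.1 in control PC and 26.1 to 82.5 CPM with a median of 46.97 in c-RelTG PC. In GCB it was at 3.91 to 20.4 CPM with a median of 14.9 in controls and 10.2 to 27.6 CPM with a median of 17.7 in c-RelTG mice. The difference was −1.21 (SE 0.27), all 8 c-RelTG mice lying below every control in PC minus GCB (edgeR adjusted p = 0.00327; exact permutation p = 0.000155), and −0.33 with the PC T cell covariate. Irf1, a transcription factor of interferon responses, differed through GCB instead, where it rose: controls were at 43.3 to 149.9 CPM with a median of 63.2 and c-RelTG mice at 87.9 to 188 CPM with a median of 156. In PC it ran from 94.2 to 159 CPM in controls and from 106 to 165 CPM in c-RelTG mice. The difference of −0.87 (SE 0.22) passed narrowly (edgeR adjusted p = 0.0387), and leaving out any single mouse other than 4, 8 or 11 ended the call (adjusted p up to 0.102). Icam1, an adhesion ligand of integrins on T cells, rose in GCB by 0.28 and had a difference of −0.68 (SE 0.20, edgeR adjusted p = 0.0485), lost without 1 of 10 mice, 1, 3, 6, 7, 10 and 12 to 16 (adjusted p up to 0.142). Gadd45b, a stress-response gene, ran the other way. Its difference was 0.67 (SE 0.19, edgeR adjusted p = 0.0311), with an effect of 0.50 in PC, and its call was lost without mouse 1, 7, 9, 11, 15 or 16 (adjusted p up to 0.125).

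Promoter letters are shown for 3 called genes whose windows held a motif of NF-kB or interferon signalling, picked after the motif search. The 250 bases before the RefSeq start (GRCm38.p6) were searched on both strands for a kB motif (GGGANNTTCC), an interferon-stimulated response motif (GAAANNGAAA) and a gamma-activated motif (TTCNNNGAA), which do not overlap in the cases shown. Of the 66 genes with named values, 53 matched a promoter in the table. All matches of the motifs are in capitals. The Serpina3g window (chr12:104235897-104236146, plus strand) holds a gamma-activated motif 33 bases before the start. The Nfkbia window (chr12:55492648-55492897, minus strand) holds a kB motif 29 bases before the start. The B2m window (chr2:122147437-122147686, plus strand) holds an interferon-stimulated response motif at 139 bases and a kB motif at 126 bases before the start.
Serpina3g: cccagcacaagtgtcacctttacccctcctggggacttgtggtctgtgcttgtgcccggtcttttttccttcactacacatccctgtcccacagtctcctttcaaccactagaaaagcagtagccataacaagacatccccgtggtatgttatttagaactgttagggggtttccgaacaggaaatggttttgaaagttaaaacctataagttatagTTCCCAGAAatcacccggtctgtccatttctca
Nfkbia: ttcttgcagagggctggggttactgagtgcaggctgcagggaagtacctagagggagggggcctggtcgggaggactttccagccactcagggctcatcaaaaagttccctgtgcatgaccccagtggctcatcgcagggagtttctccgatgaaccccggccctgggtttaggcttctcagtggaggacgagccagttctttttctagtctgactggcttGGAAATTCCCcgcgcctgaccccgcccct
B2m: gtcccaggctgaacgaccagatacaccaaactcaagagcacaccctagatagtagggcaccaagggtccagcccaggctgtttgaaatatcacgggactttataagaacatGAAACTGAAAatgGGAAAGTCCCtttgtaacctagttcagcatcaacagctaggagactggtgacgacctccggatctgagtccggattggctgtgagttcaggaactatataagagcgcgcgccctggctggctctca
A kB match is in 1.21% of 27025 mouse promoters, an interferon-stimulated response match in 3.06% and a gamma-activated match in 7.08%. Among the 5428 genes tested that had a promoter, the shares were 1.18%, 2.69% and 5.64%. Of the 64 negative genes with a promoter, 3.12%, 9.38% and 7.81% held these letters (2, 6 and 5 genes), and of the 38 positive ones 2.63% each (1 gene). Of the 3 largest positive and 3 largest negative differences above 10 CPM in both populations, only Serpina3g had a match. The letters are a description of the windows and say nothing of binding.

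Other genes named for the size of their negative difference follow. P2ry10, a lysophospholipid receptor, was at 27.96 to 56.4 CPM with a median of 40.5 in control PC and 10.4 to 22.2 CPM with a median of 18.4 in c-RelTG PC, without overlap. In GCB it ran from 6.52 to 19.1 CPM in controls and from 11.2 to 22.3 CPM in c-RelTG mice. The difference was −1.79 (SE 0.35, edgeR adjusted p = 0.000572; exact permutation p = 0.000155), and −0.85 with the PC T cell covariate. In mouse 5 its PC level was 18.9 CPM. Btla, an inhibitory receptor of B and T cells, was at 7.39 to 32.6 CPM with a median of 19.7 in control PC and 0 to 12.4 CPM with a median of 6.31 in c-RelTG PC. Its difference was −1.75 (SE 0.42, edgeR adjusted p = 0.00651), and −2.08 with the PC T cell covariate. Lgals9, the lectin galectin-9, was at 48.05 to 107 CPM with a median of 73.04 in control PC and 13.6 to 62.9 CPM with a median of 26.7 in c-RelTG PC, where mouse 5 was the highest. Its difference was −1.74 (SE 0.31, edgeR adjusted p = 0.000114). Id2, an inhibitor of E protein transcription factors, was at 33.6 to 88.4 CPM with a median of 54.9 in control PC and 12.4 to 33.9 CPM with a median of 18.9 in c-RelTG PC, groups that met at 33.6 and 33.9 CPM. In PC minus GCB all 8 c-RelTG mice were below every control, with a difference of −1.65 (SE 0.29, edgeR adjusted p = 5.14e-05; exact permutation p = 0.000155) and a value of −1.60 with the PC T cell covariate. It was the sole call among 5 Id and E protein factors tested of 6 listed, whose median difference was 0.10.

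Another 5 negative genes were named after their values were seen. Ctss, the lysosomal protease cathepsin S that trims the MHC class II invariant chain, was at 1308 to 2259 CPM with a median of 1771 in control PC and 736 to 1040.0 CPM with a median of 895 in c-RelTG PC, while GCB ran from 240 to 307 CPM in controls and from 218 to 261 CPM in c-RelTG mice. The difference was −0.94 (SE 0.11, edgeR adjusted p = 5.21e-08), with no overlap between genotypes in PC minus GCB. Rgcc, a cell cycle regulator, fell in PC, at 316 to 486 CPM with a median of 363 in controls and 141 to 220.1 CPM with a median of 182 in c-RelTG mice, with a difference of −1.19 (SE 0.15, edgeR adjusted p = 6.15e-07). Il2rg, the common cytokine receptor chain, had a difference of −0.91 (SE 0.18, edgeR adjusted p = 0.00327) and −0.42 with the PC T cell covariate. Ptpn6, the phosphatase SHP-1 that limits antigen receptor signals, fell in both populations, with effects of −0.27 in GCB and −1.09 in PC and a difference of −0.82 (SE 0.13, edgeR adjusted p = 8.90e-06) and −0.44 with the PC T cell covariate. Laptm5, a lysosomal protein that lowers receptor levels, had a difference of −0.43 (SE 0.12, edgeR adjusted p = 0.037), and its call was lost without mouse 1, 4, 6, 8, 9, 10, 12, 13, 14 or 15 (adjusted p up to 0.0998).

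**Figure D3:**
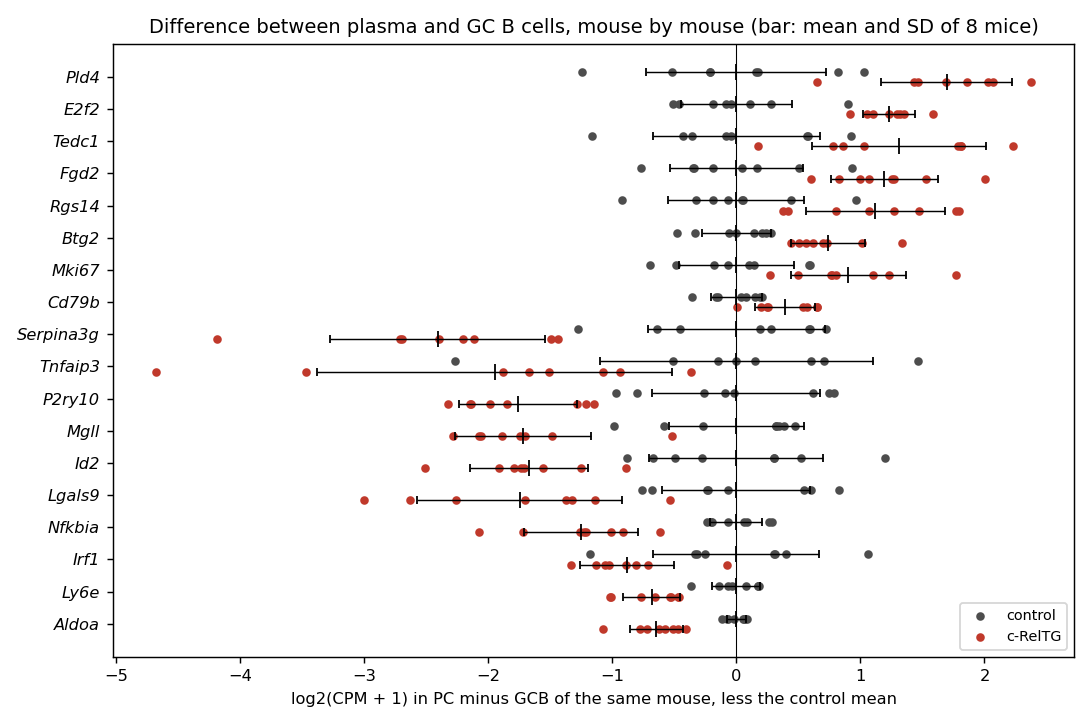
Level in PC minus level in GCB of the same mouse for 18 genes, in log2(CPM + 1) after subtraction of the control mean (horizontal axis), with 1 point per mouse (grey control, red c-RelTG) and bars for the mean and SD of 8 mice. For E2f2, Btg2, Serpina3g, P2ry10, Id2, Nfkbia, Ly6e and Aldoa, no c-RelTG mouse reached the control range, and for the other 10 genes the ranges overlapped.

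Glycolysis genes were higher in c-RelTG GCB, with no call in PC. Of 16 listed, 10 were tested, all with a difference below 0 (median −0.36), and 2 were called, Aldoa and Pdk1. In GCB alone 7 of the 10 rose, beside 229 of 6393 among all genes. In PC none of 9 was called, which is not far from the 6.35% called among all genes. The median effect was 0.49 in GCB and 0.23 in PC, so that both lay above 0. Aldoa, the glycolytic enzyme aldolase A, was at 692 to 821 CPM with a median of 765 in control GCB and 933 to 1438 CPM with a median of 1120.0 in c-RelTG GCB, without overlap. In PC it was at 590.5 to 748 CPM with a median of 649 in controls and 542 to 673 CPM with a median of 628 in c-RelTG mice, with overlap. The difference was −0.65 (SE 0.09), with all 8 c-RelTG mice below every control (edgeR adjusted p = 7.15e-07; exact permutation p = 0.000155). Pdk1, a kinase that turns pyruvate away from mitochondria, rose in GCB by 1.03. Its PC level was 30.7 ± 13.3 CPM in controls and 20.4 ± 7.35 CPM in c-RelTG mice (SD, n = 8), and the difference was −1.64 (SE 0.37, edgeR adjusted p = 0.00327). With the PC T cell covariate it was −0.88. Mgll, which breaks down monoacylglycerol, rose in GCB, at 7.82 to 19.8 CPM with a median of 12.7 in controls and 22.7 to 38.6 CPM with a median of 29.6 in c-RelTG mice, without overlap. In PC it was at 47.5 to 89.5 CPM with a median of 55.5 in controls and 29.5 to 75.4 CPM with a median of 39.1 in c-RelTG mice, and the difference was −1.78 (SE 0.27, edgeR adjusted p = 2.25e-06). Pycr1, an enzyme of proline synthesis, was at 0 to 5.51 CPM with a median of 1.42 in control GCB and 3.78 to 11.3 CPM with a median of 7.84 in c-RelTG GCB, and PC held 325 and 279 CPM on average in controls and c-RelTG mice. The difference was −2.21 (SE 0.41, edgeR adjusted p = 0.0002). Chst1, a sulfotransferase, fell in PC instead, at 131 to 282 CPM with a median of 206 in controls and 58.8 to 132 CPM with a median of 104 in c-RelTG mice, with a difference of −1.51 (SE 0.33, edgeR adjusted p = 0.00418).

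Myc and ribosome biogenesis genes likewise rose in GCB without a call in PC. Of 24 listed, 23 were tested and 21 had a difference below 0 (median −0.25), 2 were called negative (Npm1 and Myc) and 0 positive. In GCB 12 of 23 rose, beside 229 of 6393 among all genes. In PC 0 of 13 were called, not far from the 6.35% called among all genes. The median effect was 0.40 in GCB and 0.20 in PC, so that both lay above 0. Myc, a transcription factor of cell growth, was at 27.3 to 65.8 CPM with a median of 39.5 in control GCB and 58.8 to 109 CPM with a median of 76.98 in c-RelTG GCB, which overlapped between 58.8 and 65.8 CPM. In PC it was at 3.70 to 43.98 CPM with a median of 27.2 in controls and 10.4 to 40.2 CPM with a median of 21.1 in c-RelTG mice. The difference was −1.03 (SE 0.29, edgeR adjusted p = 0.0368), the exact permutation test gave p = 0.0508, and the call was lost without mouse 1, 4, 6, 7, 9, 10, 11, 13 or 14 (adjusted p up to 0.133). Npm1, a nucleolar protein of ribosome assembly, had a difference of −0.44 (SE 0.11, edgeR adjusted p = 0.019), lost without mouse 9, 10, 11 or 16 (adjusted p up to 0.0683), and −0.69 with the PC T cell covariate. Of cytosolic ribosomal proteins, all 22 tested had a difference below 0, beside 3765 of the 7338 genes tested. All 22 were also below 0 with RLE size factors and with DESeq2, the other scalings tried. Their median was −0.22, with 3 called negative (Rplp1, Rpl8 and Rpl13) and 0 positive. In GCB 3 of 22 rose, beside 229 of 6393 among all genes. In PC 5 of 22 fell, beside 6.35% of all genes called in either direction. Rpl8, a large-subunit protein, was at 2498 to 2650.0 CPM with a median of 2589 in control GCB and 2549 to 3194 CPM with a median of 2985 in c-RelTG GCB, and at 2247 to 2784 CPM with a median of 2553 in control PC and 1943 to 2399 CPM with a median of 2180.0 in c-RelTG PC. Its difference was −0.39 (SE 0.09, edgeR adjusted p = 0.00542). Rplp1, of the ribosomal stalk, had a difference of −0.42 (SE 0.09, edgeR adjusted p = 0.00168), and Rpl13 one of −0.40 (SE 0.11, edgeR adjusted p = 0.0231), lost without mouse 5, 6, 10, 11 or 15 (adjusted p up to 0.0807). Ribosomal protein genes have many processed pseudogenes, so their counts are uncertain.

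**Figure D4:**
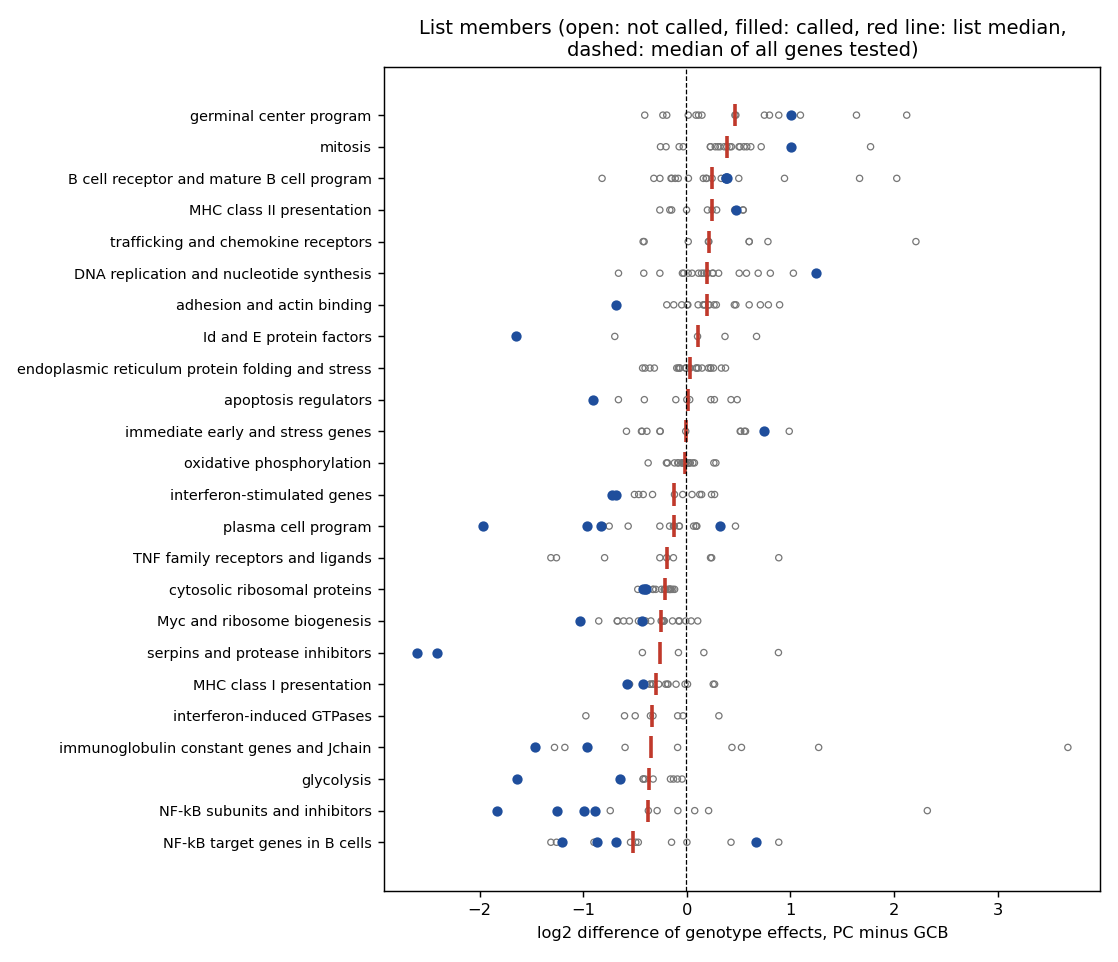
Log2 difference of effects, PC minus GCB (horizontal axis), for the tested members of 24 gene lists, with called genes filled, list medians as red lines and the median of all 7338 genes dashed. All members of the glycolysis and cytosolic ribosomal protein lists lie below 0, while 17 of 21 mitosis genes and 13 of 16 germinal center genes lie above it. Of all 7338 genes, 3765 lie below 0 and 3573 above it.

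Most cell division genes lay on the positive side, with few calls. E2f2, a transcription factor of S phase entry, was at 36.99 to 73.9 CPM with a median of 49 in control PC and 72.6 to 132 CPM with a median of 106 in c-RelTG PC, groups that met at 73.9 and 72.6 CPM. In GCB it was at 86.5 to 136 CPM with a median of 113 in controls and 83.2 to 134 CPM with a median of 95.8 in c-RelTG mice. The difference was 1.25 (SE 0.18), all 8 c-RelTG mice lying above every control in PC minus GCB (edgeR adjusted p = 7.15e-07; exact permutation p = 0.000155). E2f2 was the sole call among 22 DNA replication and nucleotide synthesis genes, of which 17 had a difference above 0 (median 0.19, and −0.12 with the first and −0.35 with the second T cell covariate). Mki67, the proliferation marker Ki-67, was at 26.7 to 48.05 CPM with a median of 39.2 in control PC and 50.3 to 163 CPM with a median of 66.4 in c-RelTG PC, without overlap. In GCB it ran from 114 to 201 CPM in controls and from 138 to 204 CPM in c-RelTG mice. The difference was 1.0 (SE 0.20, edgeR adjusted p = 0.000942), and 0.37 with the PC T cell covariate. It was the sole call among 21 mitosis genes tested of 22 listed, with 17 above 0 and a median of 0.39, which was 0.037 and −0.055 with the T cell covariates. Ncapg, a condensin subunit, had 0 to 15.5 CPM with a median of 9.13 in control PC and 10.4 to 31.7 CPM with a median of 17.7 in c-RelTG PC. Its difference was 1.31 (SE 0.38, edgeR adjusted p = 0.0428), and 0.14 with the PC T cell covariate, and its call was lost without mouse 1, 3, 4, 7, 10, 11, 12, 13, 15 or 16 (adjusted p up to 0.129). Tedc1, a centriole protein, rose in PC by 1.0 and had a difference of 1.30 (SE 0.28, edgeR adjusted p = 0.00204), and 0.53 with the PC T cell covariate. Wdhd1, a replisome protein, had a difference of 1.69 (SE 0.49, edgeR adjusted p = 0.0434) at 3.55 ± 2.74 CPM in control PC and 12.7 ± 6.16 CPM in c-RelTG PC (SD, n = 8). Its call was lost without mouse 1, 2, 3, 4, 5, 10, 11, 12, 13 or 15 (adjusted p up to 0.14). Top1, a topoisomerase that relaxes DNA during transcription and replication, had effects of 0.41 in PC and −0.23 in GCB, both called, and a difference of 0.63 (SE 0.10, edgeR adjusted p = 1.57e-05).

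Pld4 and other positive genes named for their size or list follow, together with Napsa, which was named after its values were seen. Of these, Pld4, Rgs14, Btg2, Napsa, Rasgrp2, Pitpnc1 and Tnrc6b fell in c-RelTG GCB. Pld4, an endolysosomal exonuclease, was at 65.8 to 146 CPM with a median of 101 in control GCB and 46.2 to 93.2 CPM with a median of 57.3 in c-RelTG GCB. In PC it was at 81.5 to 248 CPM with a median of 120.3 in controls and 195 to 371 CPM with a median of 252 in c-RelTG mice, and the groups overlapped in both populations. Both effects were called, −0.75 in GCB and 0.90 in PC, and their difference was 1.66 (SE 0.30, edgeR adjusted p = 0.00784; exact permutation p = 0.000466), the largest positive one at 10 CPM or more in both populations. Rgs14, a brake on G protein signals, had effects of −0.63 in GCB and 0.47 in PC, and a difference of 1.10 (SE 0.23, edgeR adjusted p = 0.00132), and 0.55 with the PC T cell covariate. Btg2, an antiproliferative early response gene, was at 378 to 594 CPM with a median of 493 in control PC and 554 to 939 CPM with a median of 623 in c-RelTG PC. Its effects were −0.34 in GCB and 0.41 in PC, and the difference of 0.75 (SE 0.12) separated the 8 c-RelTG mice from the 8 controls without overlap (edgeR adjusted p = 1.81e-05; exact permutation p = 0.000155). It was the sole call among 13 immediate early and stress genes tested of 23 listed, whose median difference was −0.010, and 0.011 with RLE size factors, 0.023 with DESeq2 and 0.56 with the PC T cell covariate. Napsa, an aspartic protease, had effects of −0.29 and 0.32 and a difference of 0.61 (SE 0.12, edgeR adjusted p = 0.000626). Fgd2, an exchange factor for Cdc42, was at 14.8 to 56.5 CPM with a median of 23.5 in control PC and 34.9 to 75.7 CPM with a median of 55.5 in c-RelTG PC, with a difference of 1.17 (SE 0.25, edgeR adjusted p = 0.00234). Rasgrp2, an activator of Rap1, fell in GCB, with an effect of −0.88, and had a difference of 1.03 (SE 0.26, edgeR adjusted p = 0.0122). Pitpnc1, Tnrc6b and Srpk2, a lipid transfer protein, a partner of Argonaute and a splicing factor kinase, had differences of 1.21, 1.06 and 1.05, and that of Srpk2 lost its call without mouse 1, 6, 7, 11 or 14 (edgeR adjusted p up to 0.0694).

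Few members of the B cell program were called, all of them positive. Of 23 B cell receptor and mature B cell genes tested, 3 had a positive call (Cd79b, Blnk and Fcrla), 0 a negative one, and the median was 0.24. With DESeq2 and without the replicate block 0 of the 23 were called (5 at an unadjusted p below 0.05 in edgeR with the block). In GCB 11 of 22 fell, and in PC 6 of 16 fell. Among all genes 7.68% were called in GCB and 6.35% in PC, in either direction. Cd79b, a signalling chain of the B cell receptor, was at 1759 to 2605 CPM with a median of 2099 in control GCB and 1370.0 to 2348 CPM with a median of 1869 in c-RelTG GCB, and at 1271 to 1770.0 CPM with a median of 1500.0 in control PC and 1512 to 1938 CPM with a median of 1621 in c-RelTG PC. Its difference was 0.39 (SE 0.10, edgeR adjusted p = 0.00968), with 7 of 8 c-RelTG mice above the control median. Blnk, the adaptor below that receptor, had a difference of 0.37 (SE 0.10, edgeR adjusted p = 0.0212), lost without mouse 1, 4, 6, 10 or 12 (adjusted p up to 0.084). Fcrla, an Fc receptor-like protein of germinal centers, had one of 0.38 (SE 0.11, edgeR adjusted p = 0.0485), lost without 11 of the 16 mice, 3 to 7, 9 to 11, 13, 15 and 16 (adjusted p up to 0.129), and 0.18 with the PC T cell covariate. Of 18 germinal center genes listed, 16 were tested. Neil1, a DNA repair glycosylase, was the sole call, at 1.0 (SE 0.27, edgeR adjusted p = 0.0212). It was lost without mouse 4, 6, 10, 11, 15 or 16 (adjusted p up to 0.131), and its value was −0.026 with the PC T cell covariate. The median of these 16 was 0.47, and several are near 0 in PC. In GCB 5 of the 16 fell, and in PC 2 of 5 tested fell, with 0 higher in either. Calls in either direction covered 7.68% of all genes in GCB and 6.35% in PC. The median effect of the germinal center genes was −0.15 in GCB and 0.0020 in PC. Bcl6, a repressor that defines germinal center B cells, was at 2.20 and 3.45 CPM in control and c-RelTG PC and had a difference of 1.10 (SE 0.71) that was not called (edgeR adjusted p = 0.537).

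Antigen presentation genes went 2 ways. Of 11 MHC class II genes tested, 8 fell in GCB, where 7.68% of all genes were called in either direction. In PC 1 of 8 was called, also a fall, beside 6.35% of all genes. The median difference over the 11 was 0.24, with H2-Eb1, a class II β chain, as the sole call. It was at 1697 to 2116 CPM with a median of 1979 in control GCB and 1480.0 to 1911 CPM with a median of 1547 in c-RelTG GCB, and at 399.8 to 478 CPM with a median of 439.5 in control PC and 435 to 592 CPM with a median of 503 in c-RelTG PC. Its difference was 0.47 (SE 0.10, edgeR adjusted p = 0.00147). Among 18 MHC class I genes 15 lay below 0, with a median of −0.30 and 2 negative calls. B2m, the invariant light chain of class I, was at 11860.0 to 15979 CPM with a median of 14123 in control PC and 9529 to 13611 CPM with a median of 11343 in c-RelTG PC, and at 831 to 1644 CPM with a median of 1334 in control GCB and 1255 to 1691 CPM with a median of 1486 in c-RelTG GCB. Its difference was −0.58 (SE 0.10, edgeR adjusted p = 6.65e-05), and that of H2-K1, a class I heavy chain with near-identical relatives, was −0.42 (SE 0.10, edgeR adjusted p = 0.0106), a call lost with DESeq2 and without the replicate block.

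Interferon-induced genes showed no single pattern. The interferon-induced GTPases, which act against intracellular pathogens, rose in both populations, 4 of 6 tested in GCB and 4 of 7 in PC. Among all genes 229 of 6393 rose in GCB and 105 of 4538 in PC. No difference of effects was called among 8 tested of 15 listed by edgeR (2 at an unadjusted p below 0.05) or by DESeq2. Their median difference was −0.34, with 7 of the 8 below 0. That median was 0.23 in mice 1 to 8 alone, with 8 of 8 above 0. In mice 9 to 16 alone it was −0.73, with 8 of 9 below 0 and 1 negative call. Igtp was at 6.98 to 28.7 CPM with a median of 13.1 in control GCB and 23.6 to 44.7 CPM with a median of 36.9 in c-RelTG GCB, and at 77.6 to 153 CPM with a median of 117 in control PC and 169.8 to 355 CPM with a median of 226 in c-RelTG PC, without overlap in PC. Its effects were 1.09 and 1.04, and their difference was −0.088 (SE 0.20, edgeR adjusted p = 0.904), which does not show that they were equal. Of 24 other interferon-stimulated genes listed, 13 were tested, and 2 had negative calls and 0 positive, with a median of −0.12. Ly6e, a GPI-anchored surface protein, was at 2317 to 3680.0 CPM with a median of 2985 in control PC and 1428 to 2128 CPM with a median of 1953 in c-RelTG PC, without overlap, and at 685 to 783 CPM with a median of 722 in control GCB and 653 to 747 CPM with a median of 690.5 in c-RelTG GCB. Its difference was −0.68 (SE 0.09, edgeR adjusted p = 3.16e-07; exact permutation p = 0.000155), and −0.43 with the PC T cell covariate. Ly6a, the related Sca-1, had a difference of −0.72 (SE 0.15, edgeR adjusted p = 0.00249).

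Some secretory genes and antibody transcripts fell in c-RelTG PC. Of 20 plasma cell genes listed, 18 were tested, and 3 had negative calls (Slc3a2, Prg2 and Jchain) and 1 a positive one (Mzb1), with a median of −0.12. Slc3a2, the heavy chain of amino acid transporters, was at 1198 to 2529 CPM with a median of 1584 in control PC and 924 to 1660.0 CPM with a median of 1083 in c-RelTG PC, with a difference of −0.83 (SE 0.13, edgeR adjusted p = 3.82e-06) and −0.48 with the PC T cell covariate. Prg2, a granule protein also known from eosinophils, was at 616 to 1292 CPM with a median of 756 in control PC and 222 to 393 CPM with a median of 265 in c-RelTG PC, without overlap. Its difference was −1.96 (SE 0.40, edgeR adjusted p = 0.00633), and −1.07 with the PC T cell covariate, and both T cell covariates ended the call. Jchain, which joins IgM pentamers and IgA dimers, was at 75373 to 127740.0 CPM with a median of 93719 in control PC and 44597 to 87886 CPM with a median of 65395 in c-RelTG PC. Its difference of −0.96 (SE 0.23, edgeR adjusted p = 0.0462; exact permutation p = 0.000311) lost its call without 11 of the 16 mice, 1 to 4, 6, 9 to 12, 14 and 15 (adjusted p up to 0.0908). Mzb1, an endoplasmic reticulum chaperone of IgM assembly, was named after its values were seen. Its difference was 0.32 (SE 0.10, edgeR adjusted p = 0.0485), lost without 12 of the 16 mice, all but 2, 3, 8 and 11 (adjusted p up to 0.116). Of 10 immunoglobulin constant genes with Jchain, 2 were called, both negative, and the median was −0.34 (0.12 with the PC T cell covariate and 0.017 in mice 1 to 8).

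The genotypes differed in isotype use, and more so in PC than in GCB. Heavy chain UMIs, counted over the µ, γ1, γ2b, γ2c, γ3, ε and α constant genes, numbered 2225 to 6278 per GCB sample and 179709 to 290317 per PC sample. In GCB, the share of these UMIs that was not Ighm ran from 51.5% to 67.1% in controls and from 62.7% to 75.5% in c-RelTG mice, with means of 60.6% ± 4.86 and 68.7% ± 4.53 (SD, n = 8). In PC it ran from 45.5% to 78.2% in controls and from 80.6% to 91.6% in c-RelTG mice, with means of 57.7% ± 9.80 and 85.9% ± 4.25 (SD, n = 8). The PC groups did not overlap, the highest control being mouse 2. From GCB to PC the share rose in all 8 c-RelTG mice, by 6.56 to 22.5 points, and in control mice it moved between −16.1 and 13.4 points. The difference between genotypes in this change was 20.1 points (exact permutation test, two-sided, p = 0.000777). It was 21.4 points in mice 1 to 8 alone (exact permutation p = 0.0571, where 4 against 4 cannot go below 0.0286) and 18.8 points in mice 9 to 16 alone (exact permutation p = 0.0286). Ighm, the IgM constant gene, was at 148850.0 to 346139 CPM with a median of 265223 in control PC and 50081 to 140662 CPM with a median of 85385 in c-RelTG PC, without overlap, and its difference of effects was −1.47 (SE 0.30, edgeR adjusted p = 0.0189). That value was −1.07 with the first T cell covariate and −0.53 with the PC one.

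The 7 heavy chain genes were tested as 1 family. Ighg1, the IgG1 gene, took 8.84% ± 1.2 of heavy chain UMIs in control GCB and 11.6% ± 1.82 in c-RelTG GCB, against 5.49% ± 4.04 and 15.7% ± 5.62 in PC (SD, n = 8). Its difference of differences was 7.51 points (exact permutation p = 0.00932, adjusted 0.0231). Ighg3, the IgG3 gene, went the other way, by −2.92 points (exact permutation p = 0.0132, adjusted 0.0231), with 5.49% ± 4.55 in control PC and 2.31% ± 1.08 in c-RelTG PC (SD, n = 8). Ighe, the IgE gene, differed by 0.33 points (exact permutation p = 0.0112, adjusted 0.0231), at 0.028% ± 0.052 of heavy chain UMIs in control PC and 0.29% ± 0.29 in c-RelTG PC (SD, n = 8). Ighg2c, at 7.34 points (exact permutation p = 0.0432, adjusted 0.0605), Ighg2b, at 5.95 points (exact permutation p = 0.121, adjusted 0.141), and Igha, at 1.86 points (exact permutation p = 0.731, adjusted 0.731), did not pass. The IgG constant genes are similar in sequence, so their split is uncertain. Shares of heavy chain UMIs measure RNA, not cells, since a plasma cell holds far more of it than other cells.

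**Figure D5:**
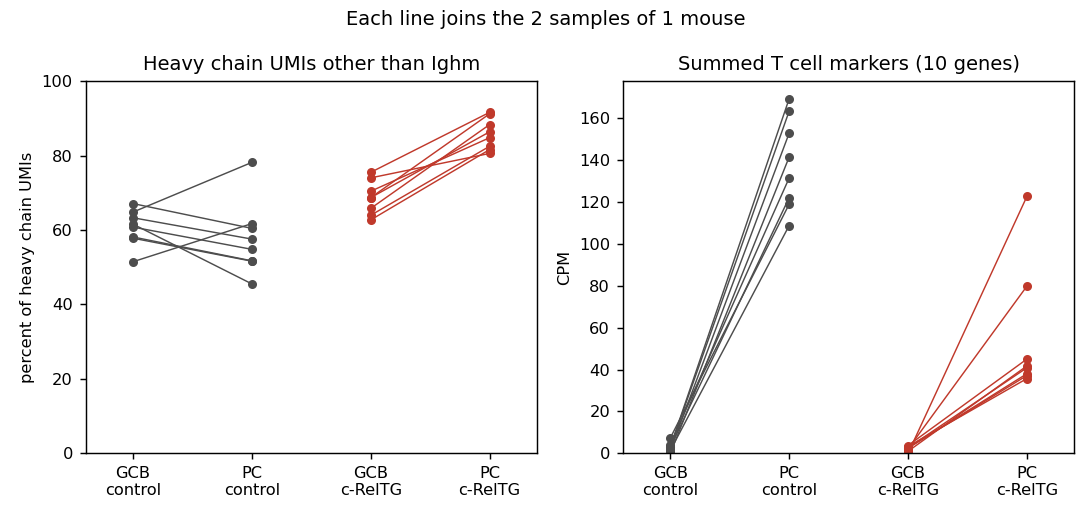
Left, percent of heavy chain UMIs other than Ighm, and right, CPM summed over 10 T cell markers, in the GCB and PC samples of each mouse (lines join the 2 samples of a mouse, grey control, red c-RelTG). The switched share ran from 80.6% to 91.6% in c-RelTG PC, above all 8 controls, and the T cell markers of c-RelTG PC lay below all controls in 7 of 8 mice.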

How the data were processed

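Spleen PC and GCB samples of 16 mice were compared. The authors deposited 1 table of UMI counts per gene (20007 genes, 48 samples), used here without change. STAR and GRCm38.p5 are named in the submitters' processing notes. No version or annotation release is given in the sources used here, nor is the UMI collapsing. The kit counts 3′ ends, so counts were not divided by length. GENCODE M21 (GRCm38) named 19701 genes, and the 306 others held 0.424% of UMIs. Ighd, Iglc1, Iglc3, Bcl2a1a and Bcl2a1d were not analysed here.

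The fit used edgeR 4.0.16 under R 4.3.3 (robust quasi-likelihood, TMM, filterByExpr, Benjamini-Hochberg 0.05) over 32 samples with terms for mouse, population and population by genotype, leaving 14 residual degrees of freedom. Each population was also fitted alone. Samples with the same number come from the same animal per the labels, which makes the mouse a block, and deviations of the GCB and PC samples of a mouse from their group means correlated at 0.0086 to 0.0966. No 2 samples held identical counts. Single values were tested over mice by exact permutation of genotype over 12870 splits, two-sided, on log2(CPM + 1). Data were also simulated for the difference of effects with 7338 genes and no mouse effect. The 200 changed genes were drawn from those at 10 CPM or more in both populations and changed in c-RelTG PC alone. Of these, 57 of 100 2-fold and 26 of 100 1.5-fold changes were recovered, and 1 unchanged gene was called. Recovery of genes at lower levels was not simulated. Animals are separate mice per the labels.

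Named genes were Rel, the 10 largest called differences per direction at a mean of 10 CPM or more in both populations, up to 5 per direction below 10 CPM in 1 population, and up to 3 called members of each of 24 lists by p (with none called, the most abundant member). Immunoglobulin segments, Y-linked genes and genes known only by number were left out. Another 9 genes were named after their values were seen. Members and lists were chosen with earlier results of these data known. The alternatives were RLE size factors, DESeq2 1.42.0, limma 3.58.1 on per-mouse log2 differences, other filters, no replicate block, thinning to 401207 UMIs, all 48 samples, no immunoglobulin genes, a Y-linked covariate, mice 1 to 8 or 9 to 16 alone, no mice 9 and 10, each mouse left out, and, chosen after seeing the data, 2 T cell marker covariates.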

Additional observations from a re-analysis of the deposited data

Results flagged for a closer look

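For 60 of the genes with values given, the genotype effects in PC and GCB differed by the interaction test of the edgeR fit over 16 mice, each at an adjusted p below 0.05. Positive differences were 1.66 for Pld4, 1.31 for Ncapg, 1.30 for Tedc1, 1.25 for E2f2, 1.21 for Pitpnc1 and 1.17 for Fgd2. Others were 1.10 for Rgs14, 1.06 for Tnrc6b, 1.05 for Srpk2, 1.03 for Rasgrp2, 1.69 for Wdhd1 and 0.67 for Gadd45b. Division and B cell genes stood at 1.0 for Mki67, 1.0 for Neil1, 0.39 for Cd79b, 0.37 for Blnk, 0.38 for Fcrla and 0.47 for H2-Eb1. The last positive values were 0.75 for Btg2, 0.63 for Top1, 0.61 for Napsa and 0.32 for Mzb1. On the negative side, protease inhibitor and receptor genes were at −2.41 for Serpina3g, −2.61 for Serpina3f, −1.79 for P2ry10, −1.75 for Btla, −1.74 for Lgals9 and −0.91 for Il2rg. NF-kB genes and targets were at −1.25 for Nfkbia, −1.83 for Tnfaip3, −0.88 for Nfkb2, −0.99 for Relb, −1.21 for Ebi3, −0.87 for Irf1 and −0.68 for Icam1. Metabolic genes were at −1.78 for Mgll, −1.64 for Pdk1, −2.21 for Pycr1, −1.51 for Chst1 and −0.65 for Aldoa. Growth and ribosomal genes were at −1.03 for Myc, −0.44 for Npm1, −0.42 for Rplp1, −0.39 for Rpl8 and −0.40 for Rpl13. Plasma cell genes were at −1.96 for Prg2, −0.83 for Slc3a2, −0.96 for Jchain and −1.47 for Ighm. Class I and interferon-stimulated genes were at −0.58 for B2m, −0.42 for H2-K1, −0.68 for Ly6e and −0.72 for Ly6a. The remaining values were −1.65 for Id2, −1.49 for Shisa8, −0.90 for Bcl2l11, −0.94 for Ctss, −1.19 for Rgcc, −0.82 for Ptpn6 and −0.43 for Laptm5.

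The switched share of heavy chain UMIs differed by 20.1 points and the immunoglobulin share of all UMIs by −2.39 points (exact permutation p = 0.0476, adjusted over 12 sample checks 0.19), the latter at 55.8% ± 2.12 in control PC and 53.7% ± 1.93 in c-RelTG PC (SD, n = 8).

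Single mice stood apart from the other 7 of their genotype in 6 of 138 groups examined, where chance gives about 1 in 20. All 6 values are PC minus GCB on the log2(CPM + 1) scale. Control mouse 2 was high for Rel (−0.52) and for Pitpnc1 (−0.18). Among c-RelTG mice, mouse 16 was low for Serpina3g (−0.98), mouse 14 was low for Btla (−4.62), and mouse 5, whose PC held the most T cell marker RNA of its genotype, was high for Mgll (1.69) and Prg2 (6.48). For Btla the PC level of mouse 14 was 0 CPM. What set these mice apart was not tested.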

How the results depend on the processing

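The 147 called differences (47 positive, 100 negative) became 90 with DESeq2 (31 and 59), 37 and 26 with limma at prior counts of 2 (11 and 26) and 0.5 (8 and 18), 85 after thinning (20 and 65), 27 in mice 1 to 8 (7 and 20), 71 in mice 9 to 16 (21 and 50), 91 with the PC minus GCB T cell covariate (28 and 63), and 0 with the T cell covariate of PC (0 and 0). Without the low-count filter 153 were called, 76 positive and 77 negative. Without the replicate block 111 were called (39 and 72). With each mouse left out in turn the count ran from 110 to 190. Without mice 9 and 10 together it was 99, with 92 of them among the 147. That fit lost the call of 15 of the 60 called genes with named values, among them Ighm, Jchain, Irf1 and Myc. GCB calls fell to 55 and 198 and PC calls to 71 and 106 in mice 1 to 8 and 9 to 16, and with each mouse left out GCB calls ran from 340 to 747, the highest without mouse 8. Of 60 called genes with named values, 41 kept the call with every mouse left out in turn. Apart from the T cell covariate of PC, 9 kept it under all alternatives that tested them (Aldoa, Ctss, E2f2, Id2, Ly6e, Nfkbia, Rgcc, Serpina3g and Top1). Neil1 changed sign with that covariate (−0.026).

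Among genes without a call, Igtp changed sign in mice 1 to 8 (0.10) and ran from −0.20 to 0.015 with mice left out. Atp5b did so with RLE size factors (0.0053), DESeq2 (0.0051), no filter (0.053) and thinning (0.020), and ran from −0.044 to 0.027. S1pr2 did so after thinning (−0.12), with the T cell covariates (−0.12 and −0.68) and in mice 9 to 16 (−0.20), and ran from −0.085 to 0.17. The per-mouse Rel difference on the log2(CPM + 1) scale ran from 0.85 to 1.51 with mice left out. Its edgeR difference of effects ran from 1.99 to 3.88. The switched share difference was 21.4 points in mice 1 to 8. The total UMI difference (−0.17, log2) was −0.19 in mice 1 to 8 and ran from −0.21 to −0.12. The immunoglobulin share difference (−2.39 points) was −0.92 and −3.86 points in mice 1 to 8 and 9 to 16, −2.26 without mice 9 and 10, and ran from −3.02 to −1.87. The causes of these changes were not tested, except that fewer mice or genes entered some fits. Genes near 0 in PC, such as Rel, were limited by depth.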

Other observations

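Secretory and respiratory gene groups gave few or no calls. Among 22 endoplasmic reticulum folding and stress genes, 0 differences were called by edgeR or DESeq2 (5 at an unadjusted p below 0.05 in edgeR) and the median was 0.027, but −0.040 and −0.093 with the T cell covariates. Hspa5, the chaperone BiP, rose in c-RelTG PC by 0.33 (edgeR adjusted p = 0.00674), with 3194 to 4275 CPM with a median of 3779 in controls and 3562 to 5738 CPM with a median of 4910.0 in c-RelTG mice, while its GCB effect was 0.082 (edgeR adjusted p = 0.571). Their difference, 0.23 (SE 0.11), was not called (edgeR adjusted p = 0.318). Of 22 oxidative phosphorylation genes 0 were called by either tool (2 at an unadjusted p below 0.05), with a median of −0.018 (0.0012 with RLE size factors), and Atp5b, an ATP synthase subunit, had effects of 0.20 in GCB and 0.18 in PC.

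Of 20 adhesion and actin genes only Icam1, described above, was called, and the median was 0.19. Among 10 apoptosis regulators tested of 14 listed, the sole call was Bcl2l11, the proapoptotic BIM, which rose in GCB by 0.69 and had a difference of −0.90 (SE 0.24, edgeR adjusted p = 0.022). Its call was lost without mouse 3, 6, 10, 11, 13 or 16 (adjusted p up to 0.0782). Of 16 trafficking receptors listed, 9 were tested and 0 called by edgeR (1 at an unadjusted p below 0.05, and 1 called by DESeq2, median 0.21), and S1pr2, which confines B cells to germinal centers, was at 327 to 411 CPM with a median of 378 in control GCB and 320.4 to 449 CPM with a median of 361 in c-RelTG GCB. Of 17 TNF family receptors and ligands listed, 9 were tested and 0 called by edgeR (4 at an unadjusted p below 0.05) or by DESeq2 (median −0.19). Tnfrsf13c, the BAFF receptor, had a difference of 0.24 (SE 0.11, edgeR adjusted p = 0.337). Shisa8, a transmembrane protein, rose in GCB, at 7.18 to 23.4 CPM with a median of 13.8 in controls and 18.4 to 54.6 CPM with a median of 33.6 in c-RelTG mice, with a difference of −1.49 (SE 0.44, edgeR adjusted p = 0.0478). Its call was lost without mouse 2, 3, 4, 5, 6, 10, 11, 13, 15 or 16 (adjusted p up to 0.163).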
